A study of Mus musculus with 6 samples.

Results

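The genes described here are 42 genes of fatty acid oxidation, taken by gene name from a table of read counts with 54924 genes, and all 42 names were found in it. By the textbook site of their product, 25 were grouped as mitochondrial, 12 as peroxisomal and 5 as serving both compartments or lying elsewhere in the cell. They were measured by RNA sequencing in myotubes of C2C12, a mouse skeletal muscle line whose myoblasts fuse into myotubes with several nuclei when serum is low. Kaempferol is a flavonol that many plants make. After 6 days of differentiation, 3 control libraries without kaempferol were compared with 3 libraries given 25 μM kaempferol for 24 h. No genetic change is stated for either group, and a solvent for the controls is not given in the sources used here. The labels of the kaempferol libraries write C2C13, every library carries a tag reading dedifferentiation, and the protocol text, which has the myotubes reseeded into plates before treatment, is worded alike for both groups. Groups were therefore taken from the sample titles. Whether the 3 libraries within a group stem from independent cultures is not stated, so p-values here rest on the spread among the libraries, which may be technical.

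Beta-oxidation shortens fatty acids step by step to acetyl-CoA. Long chains enter mitochondria as carnitine esters, made by the CPT1 enzymes, carried by the translocase Slc25a20 and turned back to acyl-CoA by Cpt2. A dehydrogenase, a hydratase, a second dehydrogenase and a thiolase then act in turn, and electrons of the first step pass through ETF to the respiratory chain. Peroxisomes run a parallel cycle on very long and branched chains, where an oxidase makes hydrogen peroxide at the first step and the shortened products leave as carnitine esters. Working muscle draws much of its energy from the mitochondrial route, and nuclear receptors of the PPAR family are known to switch on many genes of both routes.

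The DNA just before some of these genes is shown because the report returns to them. Hadha and Hadhb, which encode the subunits of the mitochondrial trifunctional protein, point away from each other on chromosome 5. Between their outermost starts in the GENCODE annotation lie 85 bases, and RefSeq starts Hadha 182 bases further inside the gene. Cpt1a and Acadm, on chromosomes 19 and 3, showed the smallest p-values. Sequences are from RefSeq, build GRCm38.p6, and run 5′ to 3′ on the plus strand for the first and Cpt1a (chr5:30155163-30155247 and chr19:3323165-3323284) and on the minus strand for Acadm (chr3:153944644-153944763). Capitals mark GC boxes, GGGCGG on either strand.
between Hadha and Hadhb: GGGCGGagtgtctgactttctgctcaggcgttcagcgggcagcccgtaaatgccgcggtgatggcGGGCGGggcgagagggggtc
Cpt1a: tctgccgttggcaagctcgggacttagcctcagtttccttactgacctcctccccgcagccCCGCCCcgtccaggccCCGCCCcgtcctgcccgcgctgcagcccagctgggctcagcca
Acadm: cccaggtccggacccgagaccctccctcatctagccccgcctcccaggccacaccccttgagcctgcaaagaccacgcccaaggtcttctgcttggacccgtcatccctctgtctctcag

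Windows from 250 bases before to 50 bases after the start that RefSeq gives were found for 34 of the 42 genes, and short motifs were searched in them on both strands. For 4 of the 34 genes, Etfdh, Acaa1a, Scp2 and Eci2, the RefSeq start lies 733, 1618, 26451 and 32952 bases inside the gene as the count table has it, so their windows are not at the outermost start. The GC box GGGCGG was in a window of 26 genes, and 35.7% of all 32851 windows and 61.6% of the windows of tested genes held it. The box CCAAT was in a window of 16 genes, against 37.4% of all windows and 38.1% of those of tested genes. The antioxidant response element core TGACNNNGC was in the windows of Scp2 and Ehhadh alone, while 12.4% of all windows and 14.2% of those of tested genes held it. The PPAR element DR1, a direct repeat of AGGTCA with 1 base of any kind between, was in none of the windows of these genes. It was in 0.0396% of all windows and 0.031% of those of tested genes. Its looser form, the same repeat of AGGNCA, takes in the stricter one and was in none, against 0.381% of all windows and 0.186% of those of tested genes. The estrogen-related receptor element TCAAGGTCA was likewise in none of these windows, against 0.423% of all windows and 0.271% of those of tested genes. At shares this low a match would be rare in so few windows of any genes, so its absence says little about these genes. A match is a stretch of letters and not a binding site, and elements outside the windows were not searched.

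Total counts were 16575790 to 18625272 per library, and levels are CPM, the counts of a gene relative to the TMM-scaled total of its library. Of all genes 14558 had enough counts to be tested with edgeR's quasi-likelihood test, and calls of upregulation or downregulation required a Benjamini-Hochberg adjusted p under 0.05 over all of them. Markers of myotubes were present (summed level of 12 genes 342 to 404 CPM in control and 394 to 431 in kaempferol libraries, with Myog and Acta1 upregulated and Myh4 downregulated). Most of that sum was Acta1, at a mean of 193.6 CPM in control and 231.3 in kaempferol libraries, and Myh3, at 79.25 and 79.13. Ckm was at 4.66 and 3.84 CPM, and Myh8 and Actn2 had too few counts to be tested. Dividing cells were present too, with all 6 of their markers downregulated (1990 to 2132 CPM against 1511 to 1607), and the sum of 6 markers of myoblasts and reserve cells was 686 to 712 against 625 to 664 CPM (Itga7 upregulated and Myod1, Cdh15 and Sdc4 downregulated). Of 5 fibroblast markers 3 were tested, with Pdgfra upregulated and Dcn and Col1a1 downregulated, and the summed level of the 5 was 1084 to 1198 against 726 to 760 CPM. Most of that sum was Col1a1, at a mean of 1083 CPM in control and 669 in kaempferol libraries. The sum of 4 neuronal markers was 23.1 to 27.3 against 37.4 to 41.0 CPM. Nearly all of it came from Syn1 and Stmn2, both upregulated, while Rbfox3 had no count and Snap25 at most 2 per library. Of 6 adipocyte markers 5 had no count in any library and of 5 hepatocyte markers 3, among them Adipoq and Alb. Fewer cells of a type and less RNA per cell cannot be told apart in these bulk libraries, and the part of these shifts in the results below was not tested.

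With kaempferol Cpt1a rose by 43.4% and the dehydrogenase Acadm by 33.6%, while Cpt2, Slc25a20, both genes of the trifunctional protein and most of the other genes did not pass the test. Of the 42 genes 40 were tested, 14 were upregulated and 2 downregulated, and 24 did not pass. Together 40.0% were called, against 24.0% of all tested genes, and 35.0% were called upregulated, against 11.3% of all tested genes. The share called downregulated over all tested genes was 12.6%. On the log2 scale the 40 fold changes had a median of 0.18, and those of all tested genes one of 0.00. The groups of libraries did not overlap for 13 of the 14 upregulated genes and for both downregulated ones, and over all tested genes 11.0% were upregulated and 12.1% downregulated without overlap. Whether called or not, groups lay apart upwards for 18 and downwards for 3 of the 40 genes, against 18.6% and 19.6% of all tested genes (38.2% in either direction), and the log2 fold change was above 0 for 31 of the 40, against 49.9%. The changes were small: the called genes ranged from -0.31 for Acat1 to 0.87 for Acaa1b on the log2 scale. The calls of 9 upregulated genes and of Acat1 held under each of 15 other settings of the analysis, and those of Acad11, Etfdh, Acaa1a, Acaa1b, Acox3 and Eci1 did not. Each of these 6 lost its call with the replicate number as a block, and Acad11, Acaa1b, Acox3 and Eci1 lost theirs under DESeq2 too. With upper-quartile scaling 19 genes were upregulated and 1 downregulated, and over all tested genes the calls went from 1647 up and 1840 down to 1966 and 1424. Without control replicate 2 there were 9 upregulated genes in place of 14, and Acat1 was the 1 gene still downregulated on leaving out any library other than control replicate 1.

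**Figure D1:**
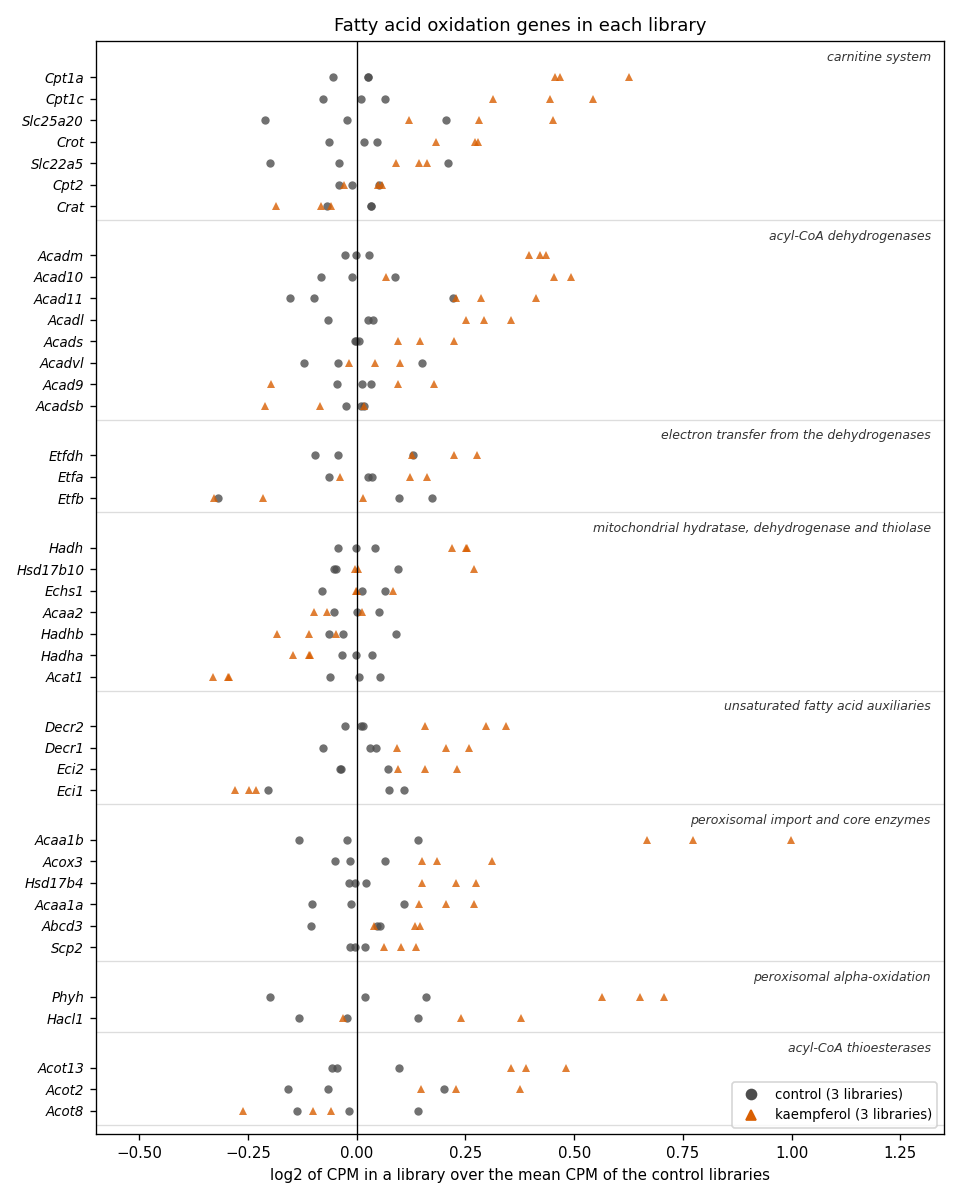
Each point is 1 library of 1 tested gene, grouped by role, with the log2 of its CPM over the mean CPM of the 3 control libraries on the x axis (circles control, triangles kaempferol). The kaempferol triangles of Cpt1a, Acadm, Phyh and Acot13 sit to the right of their control circles, those of Acat1 sit to the left, and those of Cpt2, Echs1 and Acadvl lie among the circles.

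The levels of the genes, set per length of gene as RPKM, spanned a wide range in control libraries. Acaa2, the mitochondrial thiolase for long and medium chains, was highest at 80.8 ± 2.92 RPKM (SD, n = 3), followed by Etfa at 58.9 ± 2.21 and the long-chain dehydrogenase Acadl at 51.5 ± 1.99, and the ranges of these 3 did not overlap. The next levels lay closer together. Hsd17b10 at 34.6 ± 2.03, Acadm at 34.4 ± 0.665, Scp2 at 33.0 ± 0.379, Hsd17b4 at 32.6 ± 0.461 and Acot13 at 31.2 ± 1.90 followed. Except between Acadm and Scp2, the ranges of neighbours in this order overlapped. Scp2 and Hsd17b4 were thus the peroxisomal genes with the highest levels. At the low end Acaa1b, Hacl1, Cpt1b and Ehhadh had under 1 RPKM.

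**Figure D2:**
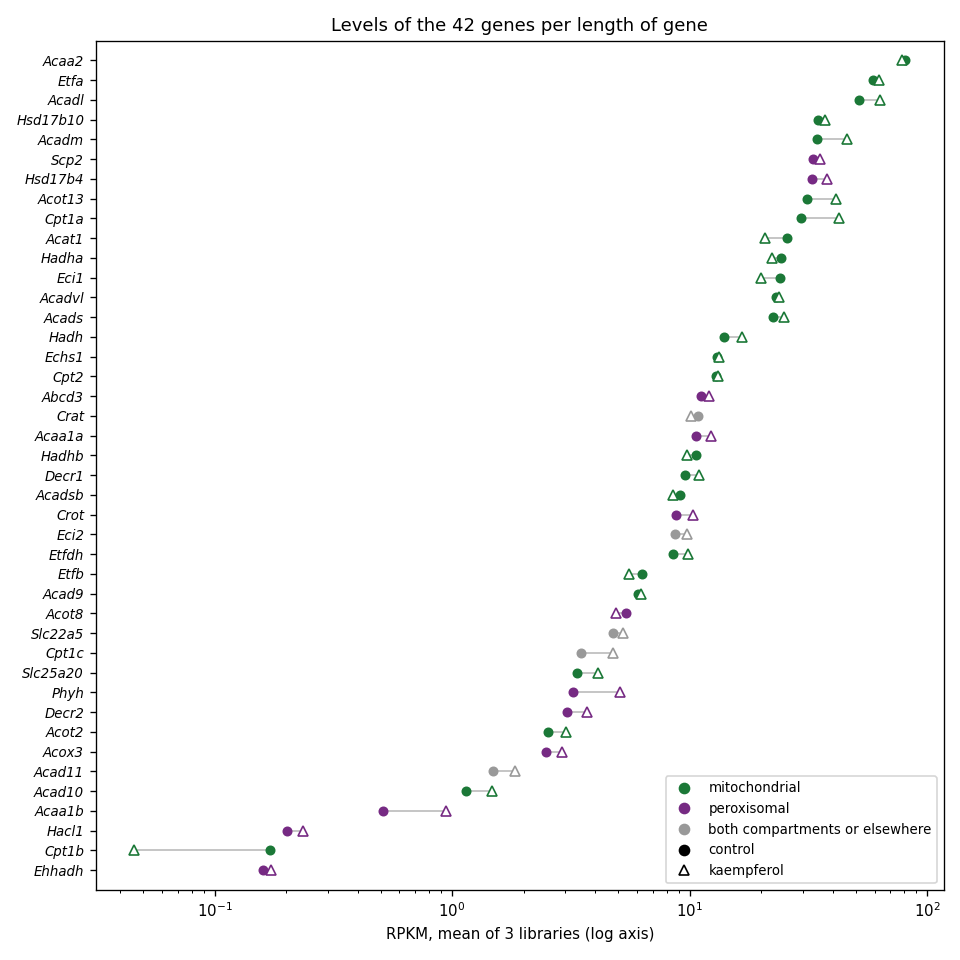
RPKM on a log x axis for each of the 42 genes, as the mean of 3 control libraries (filled circle) and of 3 kaempferol libraries (open triangle), coloured by compartment. Acaa2 stands at the top with 80.8 RPKM in control libraries, and the values of Cpt1b, Etfb and Hacl1, whose exons are shared with other gene models, may be understated.

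In the carnitine system, 3 of the 7 tested genes were upregulated and none was downregulated, against 11.3% and 12.6% of all tested genes. Cpt1a (ENSMUSG00000024900, mm10 chromosome 19 from 3323301 to 3385732, plus strand) encodes the liver-type CPT1, which commits long-chain fatty acids to mitochondria. It was at 122.3, 129.4 and 129.3 CPM in the control and 174.3, 175.6 and 196.1 CPM in the kaempferol libraries. All kaempferol libraries were above all control libraries, and the log2 fold change was 0.52 (edgeR quasi-likelihood adjusted p = 9.19e-07, standard error 0.0524). The GC boxes shown above lie just before this gene. Cpt1c, a brain-enriched relative found at the endoplasmic reticulum, was at 19.7, 18.5 and 20.5 CPM in control and 26.7, 28.6 and 24.4 CPM in kaempferol libraries. Its groups did not overlap either, and it rose by 0.44 on the log2 scale (adjusted p = 0.00100 from edgeR).

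Cpt1b, the muscle isoform that replaces the liver type in adult muscle, had too few counts to be tested. Its counts were 14, 8 and 8 in the control and 3, 4 and 1 in the kaempferol libraries. The groups did not overlap, and the ratio of the summed counts after scaling was 0.261, with an exact 95% interval of 0.104 to 0.584 that covers counting error only. With no filter on low counts its adjusted p was 0.0625 from edgeR, so the fall did not pass. A second gene model on the same strand, Gm44502, covers 81.4% of the exon bases of Cpt1b and had no count in any library. How reads in shared exons were treated is not given in the sources used here, and the level of Cpt1b may be understated. If all its counts came from its unshared bases, Cpt1b would be at 0.922 RPKM in control and 0.247 in kaempferol libraries. Cpt1a was at 29.5 and 42.3 RPKM over its whole length.

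Crot, the peroxisomal octanoyltransferase that makes carnitine esters of shortened chains for export, was at 49.1, 48.1 and 45.5 CPM in control and 54.0, 57.7 and 57.4 CPM in kaempferol libraries. All 3 kaempferol values were above the highest control value, with a log2 fold change of 0.24 (edgeR adjusted p = 0.00728, standard error 0.0613). The other 4 tested genes of the carnitine system did not pass. Cpt2, which acts on the inner face of the mitochondrial inner membrane, had a log2 fold change of 0.03 with a 95% interval of -0.12 to 0.18, so that a change of the size seen for Cpt1a lies outside it. Slc25a20, the carnitine-acylcarnitine translocase, had 0.30 (adjusted p = 0.0639 from edgeR), and it passed at 0.0201 without control replicate 3 and at 0.0385 without kaempferol replicate 2. The plasma membrane carnitine transporter Slc22a5 had 0.14, and the carnitine acetyltransferase Crat had -0.11 (unadjusted p = 0.0934), with overlapping groups.

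Among the 8 acyl-CoA dehydrogenases, which open each turn of the mitochondrial cycle, 3 were upregulated (11.3% of all tested genes were). Acadm (ENSMUSG00000062908, mm10 chromosome 3 from 153922357 to 153944632, minus strand), the medium-chain enzyme, was at 134.3, 137.3 and 132.1 CPM in the control and 177.2, 180.2 and 181.9 CPM in the kaempferol libraries. The libraries of each group lay close together and far from the other group, with a log2 fold change of 0.42 (edgeR adjusted p = 1.65e-06, standard error 0.0441). Acadl, the long-chain enzyme, was at 105.2, 106.1 and 98.8 CPM in control and 132.2, 126.7 and 123.1 CPM in kaempferol libraries. It rose without overlap by 0.30 on the log2 scale (adjusted p = 0.000175 from edgeR). Acad11, a dehydrogenase of very long chains, was at 17.0, 13.6 and 13.1 CPM in control and 17.1, 19.4 and 17.8 CPM in kaempferol libraries. Its highest control library lay just under its lowest kaempferol library, and its call (log2 fold change 0.31, adjusted p = 0.0422 from edgeR) was lost without control replicate 2 (0.136), control replicate 3 (0.157), kaempferol replicate 1 (0.0506), kaempferol replicate 2 (0.158) or kaempferol replicate 3 (0.0614). DESeq2 did not call Acad11 either.

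The short-chain enzyme Acads, the very-long-chain enzyme Acadvl, Acad9, which also helps to assemble respiratory complex I, and Acadsb, an enzyme of isoleucine breakdown, did not pass. Acads was at 51.0, 50.7 and 50.8 CPM in control and 56.2, 59.4 and 54.3 CPM in kaempferol libraries. Its groups did not overlap, yet the adjusted p was 0.0675 from edgeR, which became 0.0432 without kaempferol replicate 3. Acadvl had a log2 fold change of 0.04 (95% interval -0.10 to 0.18), and 42.9% of its exon bases are shared with Dvl2 on the opposite strand, from which it can be parted only where strand was used in counting, and that is not given in the sources used here. Acad9 had 0.04 and Acadsb -0.09. Acad10 had 0.35 (adjusted p = 0.0759 from edgeR, and 0.0230 without kaempferol replicate 1). Its near-identical neighbour Acad12, which is not among the 42 genes, had 0.77 (adjusted p = 0.00321). Since reads may be split between them, their counts were also summed, an alternative chosen after the data were seen, and the sum rose by 0.52 on the log2 scale (adjusted p = 0.00262 from edgeR).

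Electrons from these dehydrogenases pass to ETF, encoded by Etfa and Etfb, and on to ubiquinone through the dehydrogenase encoded by Etfdh. Etfdh was at 61.7, 59.5 and 69.5 CPM in control and 74.2, 77.0 and 69.4 CPM in kaempferol libraries. It was the only called gene among the 40 whose groups overlapped, since control replicate 3 and kaempferol replicate 3 were nearly equal. Its call (log2 fold change 0.21, adjusted p = 0.0233 from edgeR) was lost without control replicate 1 (0.0863), control replicate 2 (0.103), kaempferol replicate 1 (0.0678) or kaempferol replicate 2 (0.107). Etfa had 0.08 (adjusted p = 0.300, and 0.0443 without kaempferol replicate 3) and Etfb -0.17, with overlapping groups. Another model, Gm45233, with no counts, covers 53.0% of the exon bases of Etfb. If all its counts came from its unshared bases, Etfb would be at 13.4 RPKM in control and 11.9 in kaempferol libraries.

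The later mitochondrial steps moved in both directions, with 1 gene upregulated and 1 downregulated of 7, where 11.3% and 12.6% of all tested genes were called. Hadh, the hydroxyacyl-CoA dehydrogenase for short and medium chains, was at 71.76, 67.63 and 69.66 CPM in control and 83.02, 83.07 and 81.18 CPM in kaempferol libraries. Its groups did not overlap, and it rose by 0.24 on the log2 scale (edgeR adjusted p = 0.00186, standard error 0.0506). Acat1 (ENSMUSG00000032047, mm10 chromosome 9 from 53580522 to 53610382, minus strand), the mitochondrial acetoacetyl-CoA thiolase of the last cleavage, of ketone bodies and of isoleucine breakdown, went the other way. It was at 92.2, 96.6 and 99.9 CPM in control and 76.5, 78.5 and 78.4 CPM in kaempferol libraries. All kaempferol libraries lay below all control libraries, with a log2 fold change of -0.31 (edgeR adjusted p = 0.000190, standard error 0.0496).

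Hadha and Hadhb, which share the stretch of DNA shown above, did not pass the test. Hadha, whose product holds the hydratase and dehydrogenase of long chains, was at 210.7, 205.7 and 216.0 CPM in control and 195.4, 190.4 and 195.6 CPM in kaempferol libraries. Its kaempferol libraries were all below its control libraries, and its log2 fold change of -0.12 (95% interval -0.21 to -0.03) had an adjusted p of 0.0553 from edgeR. Under the 15 other settings this p ranged from 0.0512 to 0.176. Hadhb, the thiolase subunit, was at 68.3, 74.3 and 66.8 CPM in control and 61.5, 67.5 and 64.7 CPM in kaempferol libraries, with overlapping groups and a log2 fold change of -0.11 (adjusted p = 0.187 from edgeR). A pseudogene that is 99.8% identical over the aligned bases, Gm13910, had 410, 406 and 406 counts in control and 425, 401 and 476 in kaempferol libraries, so the counts of Hadhb are uncertain. With copies summed its log2 fold change was -0.07 (adjusted p = 0.382). Echs1, the short-chain hydratase, Acaa2 and Hsd17b10, a dehydrogenase of branched-chain breakdown, had log2 fold changes of 0.03, -0.05 and 0.10, and the interval for Acaa2 was -0.15 to 0.05.

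**Figure D3:**
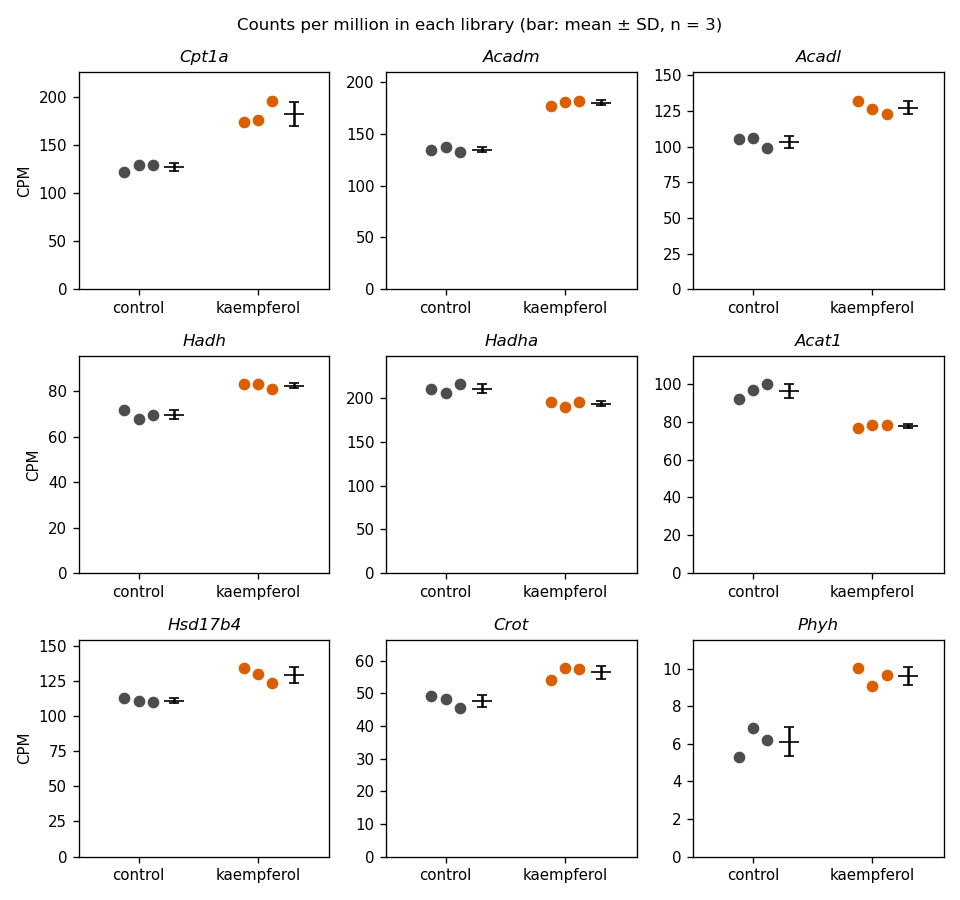
CPM on a y axis from 0 for 9 of the genes, with 1 point for each library and the mean ± SD (n = 3) beside each group. Kaempferol libraries lie above control libraries for Cpt1a, Acadm, Acadl, Hadh, Hsd17b4, Crot and Phyh, and below them for Acat1 and for Hadha, whose adjusted p of 0.0553 did not pass.

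Auxiliary enzymes remove double bonds that block the cycle on unsaturated chains, and of 4 tested 1 was downregulated and none upregulated. The share called was thus 25%, near the 24.0% of all tested genes. Eci1, the mitochondrial enoyl-CoA isomerase, was at 22.7, 27.5 and 28.1 CPM in control and 22.0, 22.2 and 21.5 CPM in kaempferol libraries. Control replicate 1 lay close to the kaempferol libraries, and the call (log2 fold change -0.25, adjusted p = 0.0444 from edgeR) was lost without control replicate 2 (0.167), control replicate 3 (0.161), kaempferol replicate 1 (0.0889), kaempferol replicate 2 (0.0870) or kaempferol replicate 3 (0.105). The call of Eci1 was also lost under DESeq2 and with upper-quartile factors. The other 3 had positive values that did not pass. Their groups lay apart upwards, as did those of 18.6% of all tested genes. The mitochondrial dienoyl-CoA reductase Decr1 had a log2 fold change of 0.19 (adjusted p = 0.0610 from edgeR, and 0.0277 without kaempferol replicate 3). Its peroxisomal counterpart Decr2 had 0.27 (adjusted p = 0.134) and Eci2, an isomerase of both compartments, 0.16 (adjusted p = 0.0709).

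Of the peroxisomal import and core enzymes, 4 of 6 tested were upregulated, against 11.3% of all tested genes, and all 6 had log2 fold changes above 0. Hsd17b4 (ENSMUSG00000024507), the D-bifunctional protein that carries hydratase and dehydrogenase, was at 112.7, 110.6 and 109.7 CPM in control and 134.3, 130.0 and 123.2 CPM in kaempferol libraries. Its groups did not overlap, with a log2 fold change of 0.22 (edgeR adjusted p = 0.00242, standard error 0.0471). Acox3, an acyl-CoA oxidase known from rodents to act on branched chains, was at 28.4, 27.8 and 30.1 CPM in control and 31.9, 32.7 and 35.7 CPM in kaempferol libraries. It too showed no overlap, but its call (log2 fold change 0.22, adjusted p = 0.0383 from edgeR) was lost without control replicate 1 (0.0950), control replicate 2 (0.107), kaempferol replicate 2 (0.0613) or kaempferol replicate 3 (0.123). The call of Acox3 was also lost under DESeq2 and with no filter on low counts. Scp2, a thiolase and sterol carrier, had 0.10 with groups that did not overlap (adjusted p = 0.118), and Abcd3, which imports branched and long-chain acyl-CoA, had 0.11 (adjusted p = 0.190). Ehhadh, the L-bifunctional protein, was not tested, with 25 counts in all control and 27 in all kaempferol libraries, a ratio of 1.06 with a counting interval of 0.591 to 1.90.

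The peroxisomal thiolases Acaa1a and Acaa1b both lie on mouse chromosome 9. Their coding sequences differ at 44 of 1272 bases and are 96.5% identical. The first 90 coding bases are shown because reads from such stretches can fit both genes, with the 3 bases that differ in capitals.
Acaa1a: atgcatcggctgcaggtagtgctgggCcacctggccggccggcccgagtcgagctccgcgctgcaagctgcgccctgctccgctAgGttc
Acaa1b: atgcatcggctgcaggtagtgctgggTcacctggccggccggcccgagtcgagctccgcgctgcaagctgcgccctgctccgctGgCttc

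Both thiolases were upregulated. Acaa1a was at 50.7, 43.7 and 46.5 CPM in control and 51.9, 54.2 and 56.7 CPM in kaempferol libraries, and Acaa1b, near the limit of detection, had 17, 20 and 15 counts against 31, 35 and 31. In neither gene did the groups overlap. The log2 fold change of Acaa1a was 0.21 (adjusted p = 0.0316 from edgeR), and the call was lost without control replicate 2 (0.136), control replicate 3 (0.0710), kaempferol replicate 2 (0.0739) or kaempferol replicate 3 (0.0906). That of Acaa1b was 0.87 (adjusted p = 0.0395), and this call was lost without any 1 of the 6 libraries (0.0559 to 0.148). The call of Acaa1b was also lost under DESeq2 and with no filter on low counts. Because reads may be split between the copies, both values are uncertain, and their summed counts rose by 0.23 on the log2 scale (adjusted p = 0.0186 from edgeR).

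Alpha-oxidation removes 1 carbon from branched chains such as phytanic acid so that beta-oxidation can follow. Phyh (ENSMUSG00000026664, mm10 chromosome 2 from 4919019 to 4938730, plus strand), the phytanoyl-CoA hydroxylase of its first step, was at 5.32, 6.85 and 6.21 CPM in control and 10.1, 9.10 and 9.68 CPM in kaempferol libraries. The groups were well apart, and the log2 fold change was 0.65 (edgeR adjusted p = 0.00160, standard error 0.133). The lyase of a later step, Hacl1, had 17, 20 and 15 counts in control and 17, 20 and 25 counts in kaempferol libraries. Its log2 fold change of 0.22 had a 95% interval of -0.45 to 0.90, too wide to show a change of the size seen for Phyh or its absence. A model with no counts, Gm49387, covers 31.1% of its exon bases.

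Acyl-CoA thioesterases split acyl-CoA into free fatty acid and CoA. Acot13, found at mitochondria, was at 22.3, 24.8 and 22.5 CPM in control and 32.4, 29.7 and 30.4 CPM in kaempferol libraries. Its groups did not overlap, and it rose by 0.41 on the log2 scale (edgeR adjusted p = 0.000781, standard error 0.0772). The mitochondrial Acot2 had 0.25 and the peroxisomal Acot8 -0.14, and their libraries overlapped.

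**Figure D4:**
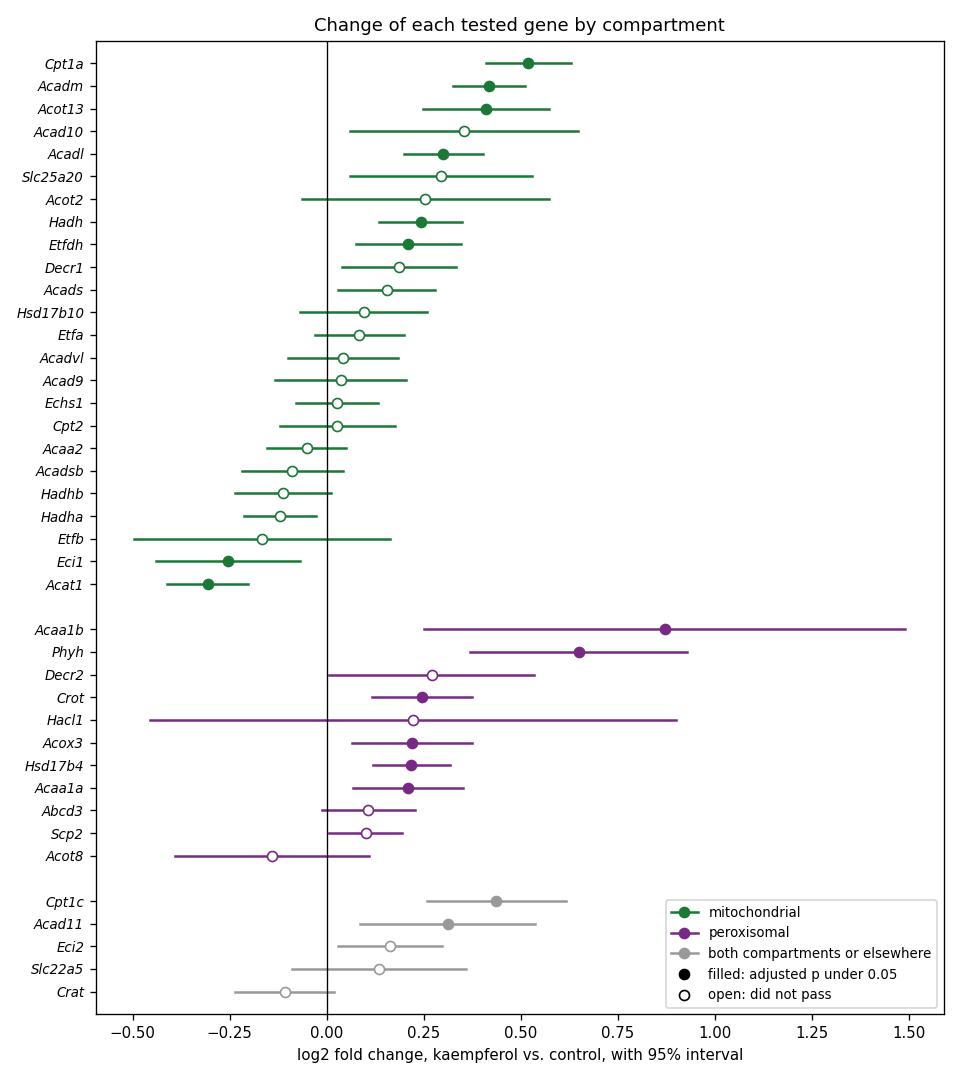
log2 fold change of kaempferol against control on the x axis with its 95% interval for the 40 tested genes, by compartment, where filled points passed at an adjusted p under 0.05. Of the mitochondrial genes 6 were upregulated and 2 downregulated, and of the peroxisomal genes 6 were upregulated and none downregulated.

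Set by compartment, the median log2 fold change was above 0 in both, and the peroxisomal median was the larger. Of 24 tested mitochondrial genes 6 were upregulated (25.0%, against 11.3% of all tested genes), 2 were downregulated (against 12.6%) and 16 did not pass, 7 had values below 0, and the median was 0.09. Of 11 tested peroxisomal genes 6 were upregulated (54.5%, against the same 11.3%), none was downregulated at an adjusted p under 0.05 from edgeR, DESeq2 or any other setting, and 5 did not pass, with a median of 0.22 and a range from -0.14 for Acot8 (unadjusted p = 0.252, the others being above 0) to 0.87 for Acaa1b. Under DESeq2 the peroxisomal genes Acaa1b and Acox3 lost their calls. With the genes that serve both compartments added, 7 of 14 were upregulated and the median was 0.22. Of the 5 genes of both compartments or elsewhere, Cpt1c and Acad11 were upregulated. The difference of the medians, peroxisomal minus mitochondrial, was 0.13, and it fell to 0.07 without control replicate 3 and to 0.05 without kaempferol replicate 3. The mitochondrial median was 0.06 without kaempferol replicate 2, 0.14 without kaempferol replicate 1 and 0.15 without kaempferol replicate 3. The peroxisomal count fell to 3 without control replicate 2, kaempferol replicate 2 or kaempferol replicate 3, and the mitochondrial count of downregulated genes to 1 on leaving out any library other than control replicate 1. These medians describe few genes, and no test of the difference was made.

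**Figure D5:**
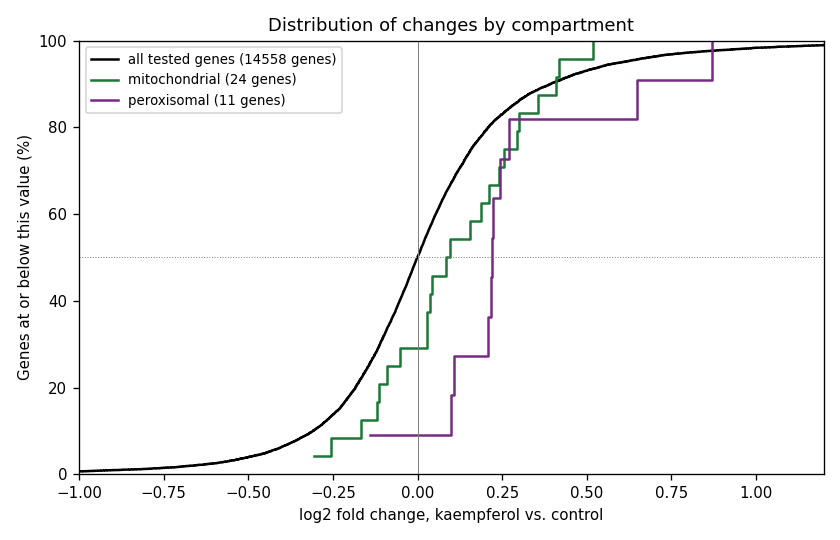
Share of genes at or below each log2 fold change (x axis, kaempferol against control) for all 14558 tested genes, 24 mitochondrial and 11 peroxisomal genes. The curves cross 50% at about 0.00, 0.09 and 0.22.

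The summed counts gave each compartment as a whole. The mitochondrial genes summed to 1610, 1637 and 1674 CPM in control and 1763, 1790 and 1767 CPM in kaempferol libraries, a ratio of the means of 1.08. Without Cpt1a, Acadm and Acadl, the 3 genes that added most to that rise, the sums were 1248, 1264 and 1314 against 1280, 1307 and 1266 CPM, which overlapped. The called genes in that remainder went both ways. Mean CPM went from 69.68 to 82.42 for Hadh, from 63.55 to 73.52 for Etfdh and from 23.20 to 30.84 for Acot13. It went from 96.20 to 77.78 for Acat1 and from 26.10 to 21.88 for Eci1. The overlap of the sums thus does not show that the other genes were unchanged. The peroxisomal genes summed to 457.9, 447.4 and 442.4 CPM in control and 505.1, 505.7 and 510.6 CPM in kaempferol libraries, a ratio of 1.13. Without the 3 genes that added most to that rise (Hsd17b4, Crot and Scp2) the sums still did not overlap, at 182.4, 174.1 and 170.9 against 196.9, 194.7 and 203.8 CPM. As a percentage of the mitochondrial sum, the peroxisomal sum was 28.45%, 27.33% and 26.42% in control and 28.64%, 28.25% and 28.89% in kaempferol libraries, and the groups overlapped.

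Genes that feed or neighbour the pathway were taken from 7 lists. Of 14 tested genes of fatty acid uptake and activation 4 were upregulated (28.6%, against 11.3% of all tested genes). None was downregulated by edgeR or DESeq2 (against 12.6%), and Fabp5, at -0.16, had an unadjusted p of 0.0263 from edgeR. Called in either direction were thus 28.6%, near the 24.0% of all tested genes. The upregulated genes were the acyl-CoA synthetases Acsbg1 (log2 fold change 0.49), Acsl3 (0.16) and Acsl4 (0.16) and the transporter Slc27a4 (0.19). Acsbg1 kept its call on leaving out any 1 library. Acsl3 lost it without control replicate 2 (adjusted p = 0.0879 from edgeR), control replicate 3 (0.0971) or kaempferol replicate 2 (0.123), Acsl4 without control replicate 1 (0.0872), control replicate 3 (0.185), kaempferol replicate 1 (0.0630) or kaempferol replicate 3 (0.142), and Slc27a4 without any library other than control replicate 1 (0.0756 to 0.195). Of 16 other peroxisomal lipid enzymes 2 were upregulated (12.5%) and 2 downregulated, near the 11.3% and 12.6% of all tested genes. The catalase gene Cat, whose product removes the hydrogen peroxide made by the oxidases, was at 65.9, 63.2 and 65.7 CPM in control and 160.6, 159.4 and 162.9 CPM in kaempferol libraries. It rose well beyond the spread, by 1.31 on the log2 scale (adjusted p = 4.49e-13 from edgeR). The racemase Amacr rose by 0.24, and Far1 and Agps, which make ether lipids, had -0.19 and -0.16. Amacr lost its call without control replicate 1 (adjusted p = 0.0622 from edgeR), control replicate 2 (0.124) or kaempferol replicate 2 (0.0905), Agps without kaempferol replicate 2 or any 1 control library (0.0574 to 0.183), and Far1 without any library other than kaempferol replicate 3 (0.0765 to 0.223). Of 16 peroxins, which build peroxisomes, Pex26 (0.53) and Pex13 (0.33) were upregulated and the other 14 did not pass, a share of 12.5% against the 11.3% of all tested genes.

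Of 8 tested PPAR targets outside beta-oxidation 4 were upregulated (50%, against 11.3% of all tested genes). None was downregulated by edgeR or DESeq2 (against 12.6%), and the 1 negative value, of Fgf21, had an unadjusted p of 0.0843 from edgeR. The lipoprotein lipase Lpl (log2 fold change 1.22), the pyruvate dehydrogenase kinase Pdk4 (1.12), the lipid droplet protein Plin2 (0.50) and the lipase inhibitor Angptl4 (0.37) each rose without overlap. Pdk4, which holds back glucose oxidation, was at 53.0, 56.4 and 56.9 CPM in control and 112.5, 128.1 and 120.1 CPM in kaempferol libraries (adjusted p = 6.74e-11 from edgeR). Of 17 tested regulators 2 were called (11.8%, against 24.0% of all tested genes), Lpin1, a phosphatidate phosphatase and coactivator (0.71), upwards and the transcription factor Nrf1 (-0.22) downwards. Nrf1 lost its call without control replicate 2 (adjusted p = 0.128 from edgeR), kaempferol replicate 2 (0.0651) or kaempferol replicate 3 (0.0663), and 2 genes were called downwards without kaempferol replicate 1 and 2 upwards without control replicate 2. Ppara had 6, 6 and 7 counts in control and 9, 5 and 9 in kaempferol libraries and was not tested. Ppard had 0.09 (adjusted p = 0.288) and the coactivator Ppargc1a, at 8 to 20 counts per library, had 0.41 (adjusted p = 0.483).

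Of 17 genes of branched- and odd-chain acyl-CoA oxidation 3 were upregulated, Mcee (0.64, with overlapping groups), Mccc2 (0.45) and Hibch (0.33), and Dbt, a subunit of the branched-chain dehydrogenase, was downregulated (-0.37). Mcee lost its call without control replicate 1 (log2 fold change 0.39, adjusted p = 0.201 from edgeR), control replicate 2 (0.0718), kaempferol replicate 1 (0.119) or kaempferol replicate 2 (0.133), and Hibch without control replicate 1 (0.0546). In all 23.5% of this list were called, against 24.0% of all tested genes. Of 5 ketone body genes, Oxct1, which starts the use of ketone bodies, fell at 399.4, 380.0 and 378.0 CPM in control and 313.6, 314.1 and 305.4 CPM in kaempferol libraries. The groups were well apart, with a log2 fold change of -0.31 (adjusted p = 4.24e-05 from edgeR), beside the -0.31 of Acat1, the next enzyme of that route. Acat2, the cytosolic thiolase of sterol synthesis, rose by 0.19 (adjusted p = 0.00536 from edgeR). With these 2, 40% of the 5 ketone body genes were called, against 24.0% of all tested genes.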

How the data were processed

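The authors deposited raw counts of reads per gene, whole numbers, in 1 table of 3 control and 3 kaempferol libraries. Tools in their processing notes are featureCounts 1.5.0-p3, HISAT2 2.0.5, fastp, DESeq2 1.20.0 and StringTie 1.3.3b, the build is mm10, and strand and overlap settings are not given in the sources used here. Counts were analysed in R 4.3.3 with edgeR 4.0.16 (TMM, default filter with a minimum count of 10, quasi-likelihood test with group as the only term, Benjamini-Hochberg adjustment over 14558 genes). The fit was also run on simulated data, with changes larger than most of those called here, so that run does not bear on changes of their size. RPKM divides CPM by the gene length in the table. Alternatives were DESeq2 1.42.0, a likelihood ratio test, other scaling, filters and thresholds, a replicate block, leaving out each library and, added after the data were seen, summing near-identical copies found with blastn 2.17.0 (at least 95% identity over 100 bases and 50% of the shorter transcript). Exons came from GENCODE M21, which gave 38 of 42 genes the same coordinates. The genes and lists were chosen with earlier results of these data known, so no test over a list was made. Genes given with every library are the called ones without overlap, the Cpt1 isoforms and both Acaa1 copies. Of each list up to 4 called genes are named, most by fold change alone, with Ppara, Ppard, Ppargc1a and Pdk4 whatever their values; 1 further gene of that rule is not reported here. Others with values were added after these were seen.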

Additional observations from a re-analysis of the deposited data

How the results depend on the processing

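Upregulated genes numbered 14 in all, and 9 at an adjusted p under 0.01 or with the replicate number as a block (9 to 13 on leaving out 1 library, lowest without control replicate 2). Downregulated genes, all mitochondrial, numbered 2, and 1 under DESeq2, upper-quartile factors, the threshold of 0.01 or the block (1 to 2 on leaving out 1 library). Upregulated peroxisomal genes numbered 6, and 3 at 0.01 or with the block (3 to 5 on leaving out 1 library, lowest without control replicate 2, kaempferol replicate 2 or kaempferol replicate 3). Same-numbered libraries did not deviate together over all tested genes (correlations -0.02, -0.06 and -0.05). A pairing that is weak or touches few genes would not show in these values. Leaving out 1 library gave medians of 0.0594 to 0.149 for mitochondrial and 0.20 to 0.23 for peroxisomal genes, and a difference of compartment medians of 0.0499 to 0.16. Signs changed only for uncalled genes, Acad9 (-0.0382 without kaempferol replicate 3, up to 0.139), Acadvl (-0.00879 without control replicate 2, up to 0.120) and Echs1 (-0.00541 without control replicate 1 and -0.000585 without kaempferol replicate 2, up to 0.0574). Upper-quartile factors moved the median of all genes to 0.03 and the calls over all genes from 1647 up and 1840 down to 1966 and 1424. The causes were not tested. Depth limits Cpt1b, Ehhadh, Acaa1b and Hacl1.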
